A study of Mus musculus with 3 samples.

Results

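The Slit, Robo and netrin guidance genes are 9 of the 27998 genes in the count tables: the secreted ligands Slit2, Slit3 and Ntn1 (netrin-1), the Slit receptors Robo1 and Robo2 with the endothelial family member Robo4, and the netrin receptors Unc5b, Unc5c and Dcc. They were taken by gene symbol, and each symbol stood on 1 row. The list was chosen by expression levels across cell classes and genotypes in these same libraries, so its levels and counts are a description and support nothing further. The nuclei came from whole mouse hearts at embryonic day 9.5 and differed in Ncx1, an alias of Slc8a1, which encodes a membrane exchanger of sodium and calcium: Ncx1+/+ hearts were wild type, Ncx1+/- hearts heterozygous and Ncx1-/- hearts mutant. Every library was made from 5 pooled, flash-frozen hearts of 1 genotype, and the labels name no strain, allele design or other treatment. The study's title concerns endocardial cilia, blood flow and the endothelial-to-mesenchymal transition of the cushions. Because each genotype is a single library, genotypes could not be tested against each other and no difference has a replicate check. Values below are in the order Ncx1+/+, Ncx1+/-, Ncx1-/-.

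Slit proteins are secreted, bind Robo receptors on neighbouring cells and were first known as repellents of growing axons. In the heart, Slit-Robo signalling is known to take part in the forming of septa, valves and the caval and pericardial regions. Netrin-1 binds Dcc, which mediates attraction of axons, and the Unc5 receptors, which mediate repulsion. Unc5b and Robo4 are also known from endothelial cells.

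After filtering, 12465, 11266 and 11232 nuclei remained, with medians of 3773, 3383 and 3545 unique molecular identifiers (UMIs). Slc8a1 itself stood at 11829, 6540 and 1033 counts per 1000000 UMIs (CPM), in the order of the labels. Malat1, a nuclear RNA, took 4.68, 4.95 and 8.43% of the UMIs, so Ncx1-/- stood apart there. Between 40 and 57 barcodes were shared by any 2 libraries. Nuclei were clustered without the 9 genes and named from marker genes: cardiomyocyte (9069, 8405 and 8831 nuclei), endocardial including any vascular endothelium (1990, 1692 and 1071), mesenchyme-type, the sub-clusters of the endocardial lineage with cushion mesenchyme markers (515, 320 and 126), epicardial and epithelial (216, 51 and 376) and erythroid (519, 476 and 97). All 13 endothelial markers were detected in mesenchyme-type nuclei of each library, and all 13 cushion mesenchyme markers except that Postn was at 0 in Ncx1-/-. Cardiomyocyte nuclei held counts of every marker of both lists too, so detection does not set the class apart. The endothelial markers summed to 3134, 3534 and 3742 CPM in mesenchyme-type and to 146, 149 and 168 CPM in cardiomyocyte nuclei. The cushion mesenchyme markers, which defined the class, summed to 1552, 1287 and 1312 CPM in it. In epicardial and epithelial nuclei they summed to 1355, 1925 and 1586 CPM. Sub-cluster numbers carry no meaning beyond this clustering, and how the calls fared with other seeds of the clustering is given in the closing section. Cardiomyocyte RNA was present in other nuclei too: the 12 cardiomyocyte markers summed to 9.54, 10.8 and 14.4% of their cardiomyocyte level in endocardial nuclei, to 10.2, 10.7 and 14.8% in mesenchyme-type nuclei and to 22.4, 27 and 44.3% in erythroid nuclei. The part of such free RNA in the levels below was not tested, apart from the subtraction named in the closing section.

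A level is the gene's count summed over the nuclei of a group, in CPM of that group, with the exact Poisson 95% interval in brackets. Levels were compared within a gene only, since counts also depend on a gene's length. A gene is called higher or lower in Ncx1-/- where its CPM was at least 1.5 times above or below both other libraries, and measured where the libraries together held at least 100 counts. Intervals of ratios are exact as well, and all intervals cover counting error only. In such sums, fewer nuclei with a transcript and less transcript per nucleus are not separated.

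**Figure D1:**
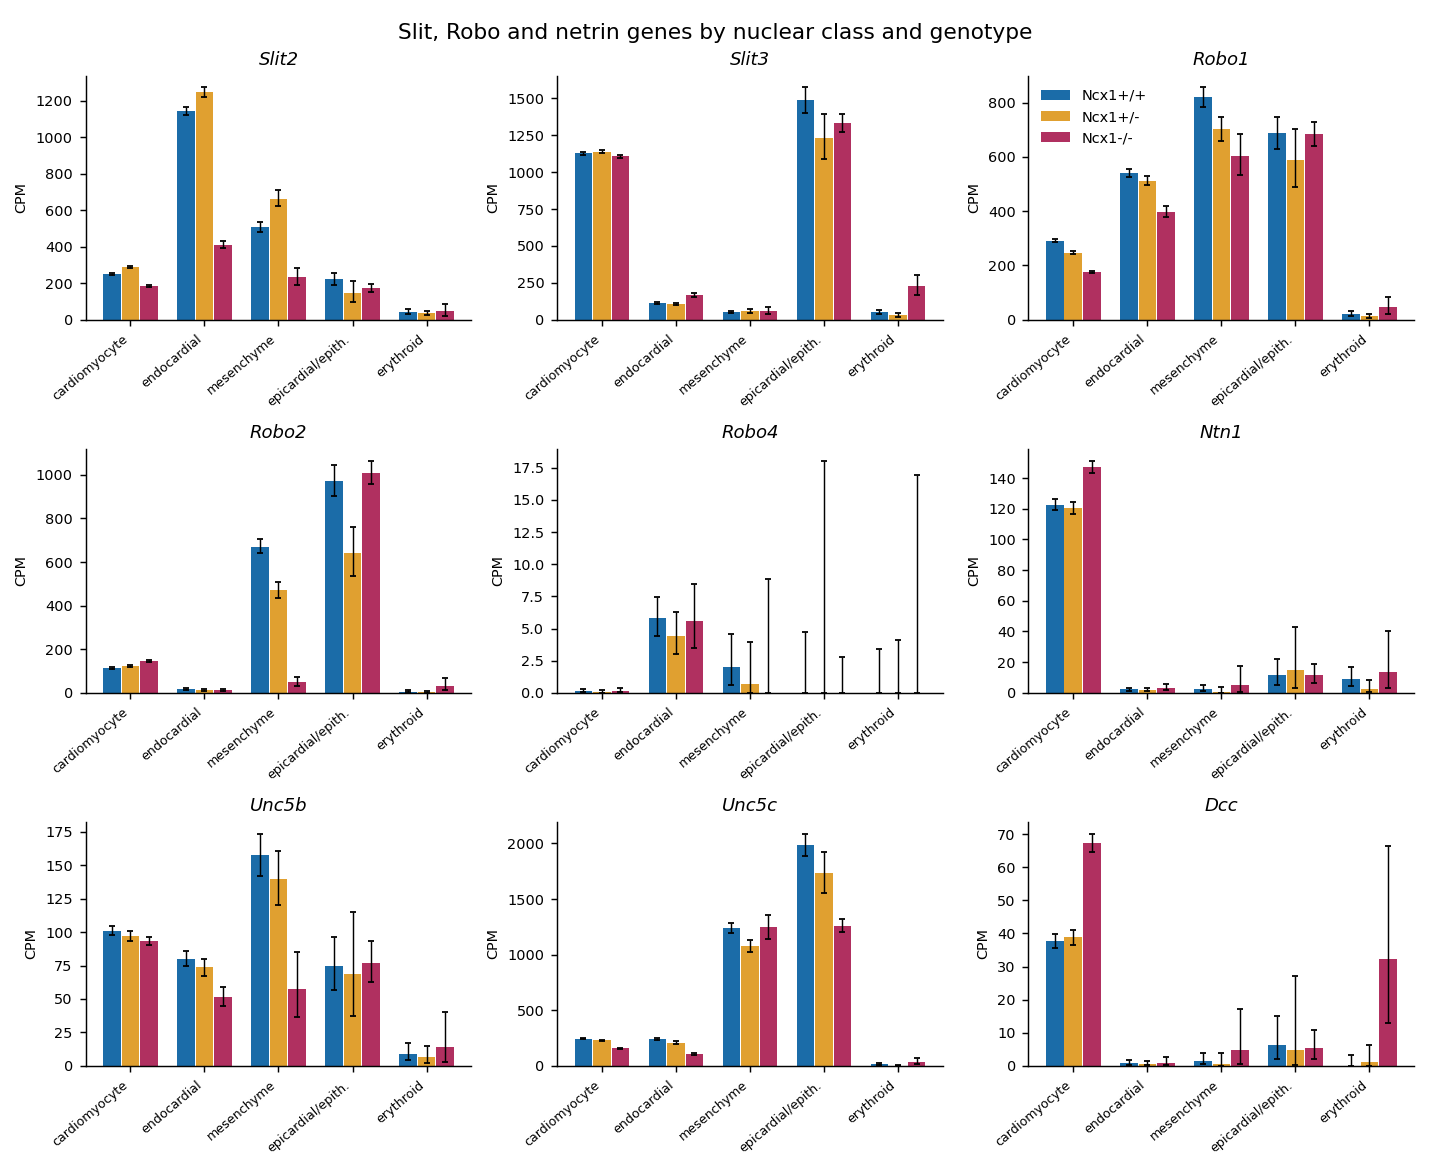
Level of each gene in CPM (vertical axis, from 0, with its own scale in each panel) in the 5 classes of nuclei (horizontal axis), with 1 bar per library and exact Poisson 95% intervals. Slit2 was highest in endocardial nuclei, Slit3 in epicardial and epithelial nuclei and cardiomyocytes, and the Robo2 bars of mesenchyme-type nuclei stand at 671, 470 and 47.8 CPM.

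Of the ligands, Slit2 was highest in endocardial nuclei, at 1144 [1123-1165], 1247 [1221-1273] and 411 [391-431] CPM. The Ncx1-/- library was far below the others, whose levels were close to each other. Its ratio was 0.359 [0.341-0.379] to Ncx1+/+ and 0.33 [0.312-0.348] to Ncx1+/-. Slit2 stood next in mesenchyme-type nuclei, at 507, 664 and 234 CPM, then in cardiomyocyte nuclei, at 252, 287 and 185 CPM, and in epicardial and epithelial nuclei, at 221, 147 and 172 CPM. Erythroid nuclei, which should lack the gene, held 42.4, 35.6 and 46 CPM.

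The share of endocardial nuclei with a Slit2 UMI was lower in Ncx1-/- too. After each nucleus was thinned to 1500 UMIs, which kept 1927, 1611 and 1010 nuclei, the share was 55.2% [53-57.5], 55.4% [53-57.9] and 29% [26.2-31.9]. Without thinning it was 73.4, 69 and 42.5%, at median depths of 4773, 3958 and 3347 UMIs. In erythroid nuclei, with 390, 334 and 57 nuclei kept and median depths of 1878, 1767 and 1643 UMIs, the thinned share was 4.1, 4.49 and 8.77%. The endocardial share was above that background in every library.

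Slit3 had another placement. Its level in cardiomyocyte nuclei was 1128 [1117-1139], 1139 [1127-1151] and 1109 [1097-1120] CPM, with a ratio of Ncx1-/- to Ncx1+/+ of 0.983 [0.969-0.997]. Epicardial and epithelial nuclei held 1486, 1234 and 1332 CPM of Slit3. In endocardial nuclei Slit3 stood at 112, 108 and 165 CPM, which is 9.93, 9.45 and 14.8% of its cardiomyocyte level and close to the share of the cardiomyocyte markers there. In mesenchyme-type nuclei it was at 4.54, 5.12 and 5.17% of that level, below the share of those markers. Neither value is read as expression of Slit3 in those nuclei.

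Both Slit genes carry a copy of the same microRNA in an intron. Slit2 is ENSMUSG00000031558, chr5:47983138-48307733, plus strand, and Slit3 is ENSMUSG00000056427, chr11:35121224-35708507, plus strand (mm10, GENCODE M21). The copies of miR-218-5p lie at chr5:48223966-48223986 in intron 16 of the 39-exon Slit2 transcript and at chr11:35616840-35616860 in intron 14 of the 36-exon Slit3 transcript, on the strand of their hosts and outside the exons. The mature sequences from RefSeq (GRCm38.p6) are shown because the 5-prime arm is the same in both hosts while the 3-prime arms differ. Bases 2 to 8 of each, the seed, are in capitals.
mmu-miR-218-5p: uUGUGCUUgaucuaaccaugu
mmu-miR-218-1-3p (Slit2): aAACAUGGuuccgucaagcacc
mmu-miR-218-2-3p (Slit3): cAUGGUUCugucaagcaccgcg
The count tables hold the host genes, and the microRNA itself was not measured.

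The netrin ligand Ntn1 was highest in cardiomyocyte nuclei, at 123 [119-126], 121 [117-124] and 147 [143-151] CPM. The Ncx1-/- library was slightly the highest, with a ratio of 1.2 [1.15-1.25] to Ncx1+/+. Endocardial nuclei held 2.3, 2.09 and 3.3 CPM of Ntn1 and mesenchyme-type nuclei 2.37, 0.711 and 4.78 CPM, which is 1.87, 1.73 and 2.24% and 1.93, 0.59 and 3.24% of the cardiomyocyte level and below the share of the cardiomyocyte markers. Dcc, the receptor for attraction, was likewise a cardiomyocyte gene here, at 37.7 [35.7-39.8], 38.8 [36.7-41.1] and 67.3 [64.6-70.1] CPM. Its ratio was 1.79 [1.67-1.91] to Ncx1+/+ and 1.73 [1.62-1.86] to Ncx1+/-. Endocardial nuclei held 0.898, 0.557 and 1.01 CPM of Dcc, from 9, 4 and 4 counts. Erythroid nuclei held 0, 1.11 and 32.2 CPM, from 0, 1 and 7 counts. The 7 counts lay in 1.03% of the 97 Ncx1-/- erythroid nuclei.

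Of the 8 genes measured in cardiomyocyte nuclei, 1 was higher in Ncx1-/- (Dcc) and none was lower. Over all 14153 genes measured there, 4.42% were higher and 3.31% lower. The median log2 ratio to Ncx1+/+ was -0.07 over the 8 genes and -0.03 over all measured genes. Robo1, a Slit receptor, stood at 290 [285-296], 247 [241-252] and 176 [171-180] CPM, with ratios of 0.605 [0.586-0.625] and 0.712 [0.688-0.737], the second short of the fold. Unc5c stood at 245 [239-250], 231 [225-236] and 158 [153-162] CPM, with ratios of 0.645 [0.623-0.667] and 0.683 [0.66-0.708], again short of it against Ncx1+/-. Robo2, at 113, 124 and 145 CPM, and Unc5b, at 101, 97 and 93.3 CPM, differed less.

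Within the heart muscle Slit2 stood out in 1 of 11 sub-clusters. The trabecular-like sub-cluster (485, 535 and 958 nuclei), led by Il1rapl1 and with the trabecular connexin Gja5 among its leading genes, held 2141 [2081-2203], 2295 [2232-2359] and 744 [717-771] CPM of Slit2. Its ratio was 0.347 [0.331-0.364] to Ncx1+/+ and 0.324 [0.309-0.339] to Ncx1+/-, close to the ratios in endocardial nuclei. The atrial-like nuclei came next, at 260, 233 and 213 CPM, and the other sub-clusters held between 71.2 and 157 CPM over the libraries together. Slit2 was lower by the fold in 2 of 11 sub-clusters: the trabecular-like one and a small unnamed one led by Hsp90aa1, at 107, 229 and 52.7 CPM.

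Trabecular-like nuclei made up 5.35, 6.37 and 10.8% of cardiomyocyte nuclei, so the class level of Slit2 joins a lower level in them with more of them. With each sub-cluster weighted as in Ncx1+/+, the log2 ratio of Slit2 in cardiomyocytes went from -0.44 to -0.82 against Ncx1+/+ and from -0.63 to -0.86 against Ncx1+/-, and Slit2 then counted as lower. Calls over all measured genes are not available under this weighting, here or below.

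Slit3 varied by chamber. The atrial-like sub-cluster, with Nr2f1 and Nr2f2 among its leading genes, held 2477 [2429-2526], 2015 [1972-2059] and 1744 [1709-1780] CPM, and the outflow-tract-like one, led by Tdgf1, 2221 [2172-2270], 2056 [2008-2106] and 1238 [1194-1284] CPM. Both were lowest in Ncx1-/-, and the outflow-tract-like value was the only one past the fold among the 11 sub-clusters. The unnamed sub-cluster led by Nell1 and Frem1, with Hand1 among its leading genes, held 1593, 1719 and 1731 CPM. The trabecular-like nuclei held 1452, 1448 and 1613 CPM of Slit3, highest in Ncx1-/-. Both atrioventricular-canal-like sub-clusters, with Bmp2 and Tbx2 among their leading genes, held less, at 539, 475 and 615 CPM in the first and 491, 576 and 595 CPM in the second. Sub-clusters thus differed in direction under a class level that differed little.

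**Figure D2:**
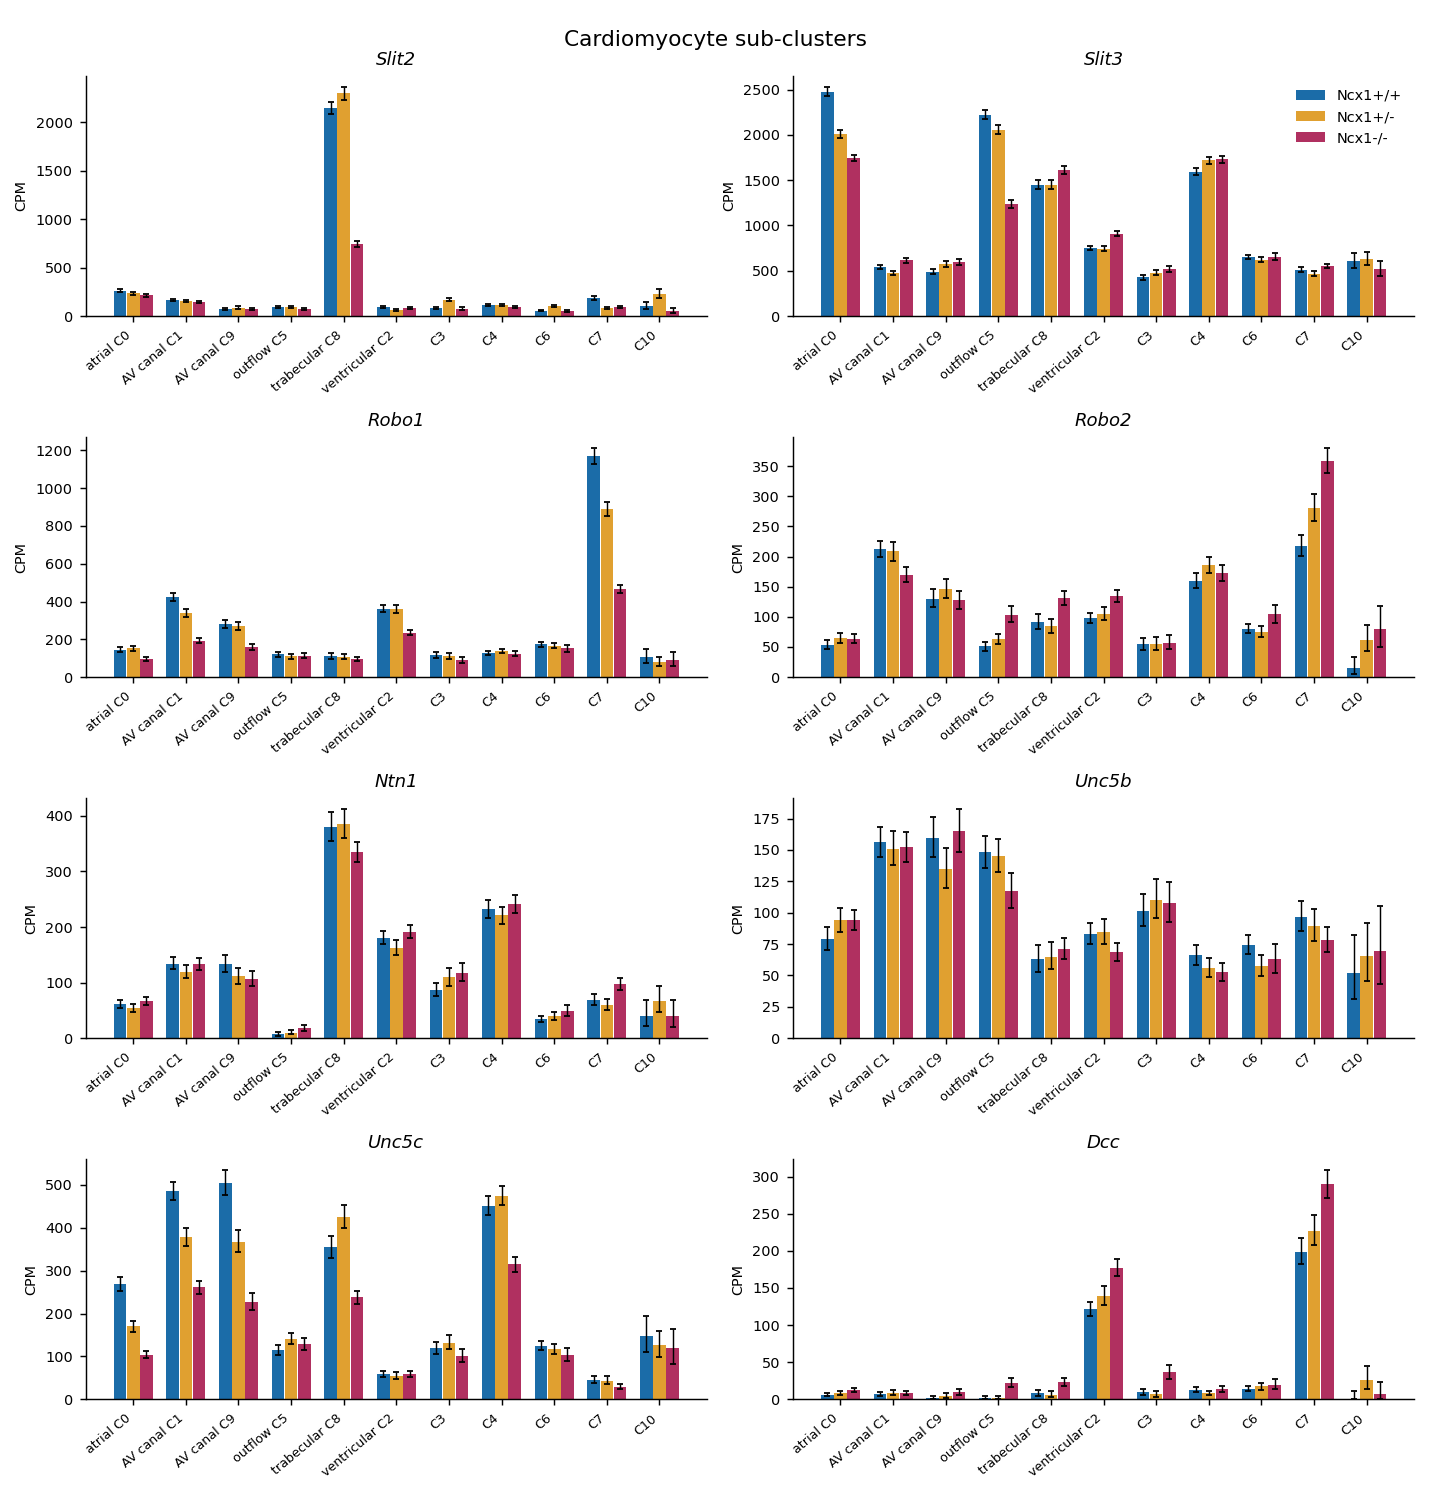
Levels in CPM (vertical axis, from 0, with its own scale in each panel) of 8 genes in 11 cardiomyocyte sub-clusters (horizontal axis), with 1 bar per library and exact Poisson 95% intervals. Sub-clusters without a name are C3 (led by Il12rb2), C4 (Nell1), C6 (Fat3), C7 (Pde7b) and C10 (Hsp90aa1). Slit2 stands out in trabecular-like nuclei and Robo1 and Dcc in C7, where Robo1 stood at 1169, 889 and 465 CPM and Dcc at 199, 227 and 289 CPM.

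An unnamed sub-cluster led by Pde7b and Negr1 (626, 611 and 918 nuclei) held the most Robo1, Robo2 and Dcc of all cardiomyocyte sub-clusters. The ventricular-like sub-cluster had 6 of 8 ventricular markers raised, at a mean log2 difference of 0.87 over the list. In that of Pde7b and Negr1, 4 of 8 were raised, at 0.98. It stayed unnamed because no ventricular marker was among its leading genes. Robo1 stood there at 1169 [1128-1211], 889 [850-929] and 465 [443-489] CPM, in steps from wild type to mutant, with ratios of 0.398 [0.374-0.423] and 0.524 [0.49-0.56]. Robo2 ran the opposite way in the same nuclei, at 218 [201-236], 281 [260-304] and 359 [339-379] CPM. Dcc did so too, at 199 [182-217], 227 [208-248] and 289 [271-308] CPM, with ratios of 1.45 [1.31-1.62] and 1.27 [1.14-1.42], short of the fold.

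The ventricular-like sub-cluster, with Pln, which encodes a regulator of the calcium pump of heart muscle, among its leading genes, was the other place of Dcc, at 121 [112-132], 139 [126-152] and 177 [166-189] CPM. In each other sub-cluster Dcc was at most 16.1 CPM over the libraries together. Of 6 sub-clusters in which Dcc was measured, it was past the fold in 2 with low levels: the atrial-like one, at 5.99, 7.86 and 12.3 CPM, and the trabecular-like one, at 8, 6.27 and 22.8 CPM. The sub-cluster of Pde7b and Negr1 made up 6.9, 7.27 and 10.4% of cardiomyocyte nuclei. Weighted as in Ncx1+/+, the log2 ratio of Dcc went from 0.84 to 0.65 against Ncx1+/+ and from 0.79 to 0.47 against Ncx1+/-, which ended the call.

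Robo1 was below both other libraries in Ncx1-/- in 9 of the 11 cardiomyocyte sub-clusters in which it was measured. It was past the fold in 5, among them the sub-cluster of Pde7b and Negr1. Both atrioventricular-canal-like ones were others, at 424, 339 and 192 CPM and 282, 271 and 158 CPM. The ventricular-like one, at 362, 359 and 234 CPM, and the atrial-like one, at 146, 152 and 95.4 CPM, completed them, with Ncx1+/+ and Ncx1+/- close to each other in both. In the sub-cluster of Nell1 and Frem1 Robo1 stood at 129, 139 and 124 CPM. The Ncx1-/- ratio to Ncx1+/+ was 0.962 [0.847-1.09] there, which is no detectable difference. With sub-clusters weighted as in Ncx1+/+, Robo1 counted as lower in cardiomyocytes, at log2 ratios of -0.77 and -0.59.

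Unc5c, a repulsive netrin receptor, was high in other sub-clusters than Dcc. It stood at 452 [431-474], 474 [453-497] and 314 [297-333] CPM in the sub-cluster of Nell1 and Frem1 and at 485 [465-506], 379 [359-400] and 261 [246-277] CPM in the first atrioventricular-canal-like sub-cluster. The ventricular-like nuclei and the sub-cluster of Pde7b and Negr1, highest in Dcc, held only 58.2 and 38.4 CPM of Unc5c over the libraries together. Unc5c was lower by the fold in 2 of 11 sub-clusters: the atrial-like one, at 269, 170 and 104 CPM, and the second atrioventricular-canal-like one, at 505, 368 and 228 CPM. In both, Ncx1+/- lay between the others. Unc5b varied less, from 58.2 CPM in the sub-cluster of Nell1 and Frem1 to 154 CPM in the second atrioventricular-canal-like one over the libraries together, and was past the fold in none of 10.

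Ntn1 was highest in trabecular-like nuclei, at 380 [355-406], 385 [360-412] and 335 [317-354] CPM, and stood at 232, 221 and 241 CPM in the sub-cluster of Nell1 and Frem1. It was lowest in outflow-tract-like nuclei, at 7.35, 10 and 17.5 CPM, the only sub-cluster where it was past the fold, and higher there in Ncx1-/-. Robo2 too was past the fold in that sub-cluster and in no other, at 50.9, 62.5 and 103 CPM. In trabecular-like nuclei, where Ntn1 was highest, Unc5c stood at 354, 425 and 238 CPM.

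In endocardial nuclei 7 of the 9 genes were measured, of which 2 were lower in Ncx1-/- (Slit2 and Unc5c) and none was higher. Over all 10588 genes measured there, 4.95% were lower and 9.73% higher. Scaling moved that split, with 66.3% of all called genes higher by class totals and 45.9% by TMM factors, and both guidance genes were called either way. The median log2 ratio to Ncx1+/+ was -0.45 over the 7 genes and 0.11 over all measured genes.

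Different sub-clusters held most endocardial nuclei of Ncx1-/-. The one led by Tll1 and Pak7 and the atrial-endocardium-like one, with Tbx5 among its leading genes, held 48.6% and 29.3% of them, against 3.42% and 6.38% in Ncx1+/+. Against the rest of the lineage, the first had 5 of 10 vascular endothelium markers raised, at a mean log2 difference of 0.72 over the list, while the ventricular endocardium list stood at -0.82 and the cushion or outflow endocardium list at -1.56. The part of such nuclei in the class levels of Slit2 and Unc5c was not tested beyond the values by sub-cluster. A further sub-cluster of the lineage, led by Cacng3 and Kcne3 (36, 164 and 443 nuclei), was set aside as mixed by its markers, with another, smaller one. Of the genes on the marker lists used here, its leading genes held only Mrc1, a macrophage marker, and none from the lists of its own lineage. Etv2, which was on none of the lists, was among them, as were Xist and Tsix. Whether these nuclei are a mixture or endothelial nuclei was not tested. The sub-cluster of Cacng3 and Kcne3 held 932 [791-1092], 343 [300-390] and 363 [337-391] CPM of Slit2, so the intervals of Ncx1+/- and Ncx1-/- overlapped there, and 0, 22.1 and 8.14 CPM of Unc5c. With both set-aside sub-clusters counted as endocardial, a choice added after seeing the data, Slit2 had log2 ratios of -1.54 to Ncx1+/+ and -1.60 to Ncx1+/-, and Unc5c -1.63 and -1.30. Whether a sub-cluster mostly of 1 library is that library or a cell type cannot be told apart.

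Unc5c stood at 240 [231-250], 210 [200-221] and 108 [98-119] CPM in endocardial nuclei, with Ncx1-/- well below the others and ratios of 0.449 [0.405-0.498] and 0.514 [0.46-0.572]. The 13 cushion mesenchyme markers summed to 875, 731 and 400 CPM in the same nuclei, also lowest in Ncx1-/-, and their part in the Unc5c level was not tested. The thinned share of nuclei with a UMI of Unc5c was 15.8% [14.2-17.5], 13.2% [11.6-15] and 6.63% [5.18-8.35], against 1.79% [0.725-3.66], 0.299% [0.00758-1.66] and 5.26% [1.1-14.6] in erythroid nuclei, so the Ncx1-/- share was not separated from that background. Unc5b, known from endothelial cells, stood at 79.8 [74.3-85.5], 73.6 [67.5-80.2] and 51.5 [44.6-59.1] CPM, with ratios of 0.645 [0.55-0.754] and 0.699 [0.591-0.823], the second short of the fold. By TMM factors its log2 ratios were -0.77 and -0.63, which is past it. Lower calls over all genes measured in these nuclei rose from 524 by class totals to 739 by TMM factors.

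The thinned share of endocardial nuclei with a Robo1 UMI was 46.8, 43.5 and 38.6%, against 2.05, 1.5 and 1.75% in erythroid nuclei, and without thinning 73.3, 68.6 and 59.8% against 3.47, 2.1 and 7.22%. Its endocardial level was 541 [527-556], 511 [495-528] and 398 [378-418] CPM, and the ratios of 0.734 and 0.778 did not reach the fold. Robo2 stood at 17.3, 12.4 and 13.7 CPM there, or 15.2, 10 and 9.44% of its cardiomyocyte level. Robo4 was detected in endocardial nuclei at 5.79 [4.4-7.49], 4.46 [3.05-6.29] and 5.58 [3.5-8.44] CPM, from 58, 32 and 22 counts. In cardiomyocyte nuclei Robo4 had 4, 1 and 5 counts in all. Its endocardial ratio was 0.963 [0.561-1.6] to Ncx1+/+, so no difference was detectable at this depth.

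Among endocardial sub-clusters, Slit2 was highest over the libraries together in the one led by Fam155a, at 1460 [1407-1514] and 1823 [1753-1895] CPM in Ncx1+/+ and Ncx1+/-. The cushion- or outflow-like sub-cluster, led by Ano1 and Dkk2, held 1476 and 1563 CPM. These had 12 and 5 Ncx1-/- nuclei, too few to compare. The sub-cluster led by Tll1 and Pak7 stood at 789 [686-904], 692 [617-774] and 330 [305-358] CPM of Slit2 and the atrial-endocardium-like one at 1245 [1142-1354], 933 [862-1009] and 493 [455-533] CPM. Both were lowest in Ncx1-/-. The ventricular-endocardium-like one, led by Sema4d, stood at 1185 [1131-1240], 1472 [1401-1546] and 668 [524-838] CPM, with 20 Ncx1-/- nuclei.

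Slit2 was past the fold in 5 of the 5 sub-clusters kept as endocardial with at least 20 nuclei in each library. The set-aside mixed sub-clusters were not counted here. In the one of Cacng3 and Kcne3, which also had that many nuclei, Slit2 in Ncx1-/- was not below Ncx1+/-. Weighted as in Ncx1+/+ over those 5, which hold 52.1% of the Ncx1+/+ and 95.5% of the Ncx1-/- nuclei, the log2 ratio of Slit2 was -0.97 to Ncx1+/+ and -1.12 to Ncx1+/-. Unc5c was at -0.78 and -0.83, and both were still lower, with no share over all measured genes beside them under this weighting. Within sub-clusters Unc5c was less even: it was past the fold in 1 of 4, the one led by Polg2, at 174, 156 and 69.2 CPM. In the atrial-endocardium-like sub-cluster it stood at 85.3 [60.1-118], 268 [231-310] and 164 [142-187] CPM, with Ncx1-/- between the others.

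**Figure D3:**
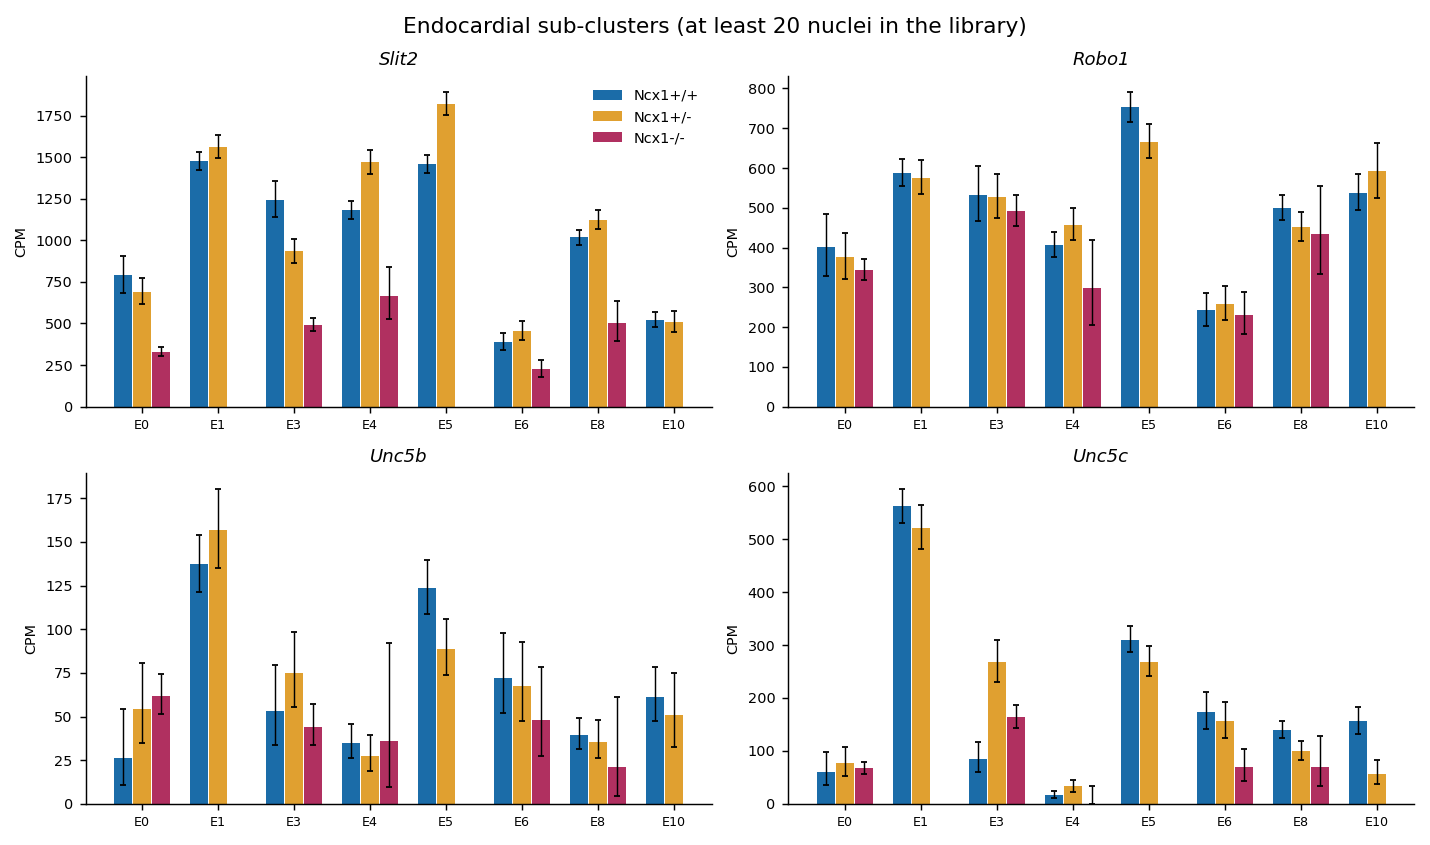
Levels in CPM (vertical axis, from 0) of Slit2, Robo1, Unc5b and Unc5c in 8 endocardial sub-clusters (horizontal axis), drawn where the library had at least 20 nuclei in the sub-cluster, with exact Poisson 95% intervals. E1 is cushion- or outflow-like, E3 atrial-like and E4 ventricular-like; E0 is led by Tll1, E5 by Fam155a, E6 by Polg2, E8 by Dync1i1 and E10 by Zcchc16. Slit2 reached 1823 CPM in E5 and Unc5c 562 CPM in E1, and no Ncx1-/- bar is drawn for E1, E5 and E10.

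Unc5c and Unc5b were both highest in the cushion- or outflow-like endocardial sub-cluster. Unc5c stood there at 562 [530-595] and 522 [482-564] CPM and Unc5b at 137 [122-154] and 157 [135-181] CPM in Ncx1+/+ and Ncx1+/-. In ventricular-endocardium-like nuclei Unc5c stood at 16.5 and 33 CPM and Unc5b at 35 and 27.5 CPM. Slit2 separated these sub-clusters less, at 1499 and 1277 CPM over the libraries together.

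In mesenchyme-type nuclei 6 genes were measured, of which 3 were lower in Ncx1-/- (Robo2, Unc5b and Slit2) and none was higher. Over all 6536 genes measured there, 9.2% were lower and 10.4% higher. By TMM factors 28.1% of all called genes were higher, against 53.2% by class totals, and the 3 guidance genes were called with both. Lower calls over all measured genes rose from 601 by class totals to 1015 by TMM factors. The median log2 ratio to Ncx1+/+ was -0.78 over the 6 genes and 0.01 over all measured genes. Robo2, a Slit receptor, stood at 671 [639-704], 470 [435-507] and 47.8 [29.2-73.8] CPM, from 1702, 661 and 20 counts. Its ratio was 0.0712 [0.0434-0.11] to Ncx1+/+ and 0.102 [0.0617-0.158] to Ncx1+/-, while Ncx1+/- stood at 0.7 times Ncx1+/+. The Robo2 call was made under every scaling, filter, clustering and seed tried for these nuclei.

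The thinned share of mesenchyme-type nuclei with a Robo2 UMI was 24.2% [20.6-28.2], 21.8% [17.3-26.7] and 3.25% [0.893-8.12], from 512, 317 and 123 nuclei, against 32.8, 26.9 and 6.35% without thinning at median depths of 4627, 4044 and 3013 UMIs. In erythroid nuclei the thinned share was 0.256, 0.599 and 0%. Robo2 was present elsewhere in Ncx1-/- hearts: epicardial and epithelial nuclei held 973 [905-1045], 642 [536-761] and 1010 [957-1066] CPM.

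Unc5b in mesenchyme-type nuclei stood at 157 [142-174], 139 [121-160] and 57.3 [36.7-85.3] CPM, lowest in Ncx1-/-. Slit2 stood at 507 [479-535], 664 [622-708] and 234 [190-285] CPM. Its call depended on how nuclei were assigned: it ended with no doublet filter, at log2 ratios of -0.23 and -0.40, with the 9 genes kept in the clustering, at -0.21 and -0.54, and with 1 of 3 other clustering seeds, at -0.48 and -0.92. Unc5c, which was lower in endocardial nuclei, stood at 1239 [1196-1283], 1076 [1023-1132] and 1247 [1143-1359] CPM here, and the difference between the classes was not tested. With no doublet filter Unc5c was past the fold here too, at log2 ratios of -0.97 and -0.73. In lineage nuclei picked by a UMI of Pdgfra, Sox9 or Twist2, described below, its ratio to Ncx1+/+ was 0.705, 0.684 and 0.584, short of the call. Robo1 stood at 820, 703 and 605 CPM, short of the fold.

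The start regions shown for the 3 genes called lower in mesenchyme-type nuclei were all rich in CpG pairs and differed in the motif letters searched. Robo2 is ENSMUSG00000052516, chr16:73891839-74411825, minus strand, and Unc5b is ENSMUSG00000020099, chr10:60762593-60831581, minus strand (mm10, GENCODE M21). The 230 bases from 250 to 21 before the RefSeq start (GRCm38.p6), outside any GENCODE gene, are shown for these genes because they were called together. Capitals mark matches to the TATA box (TATAAA), the GATA motif (AGATAA) or the ETS motif (AGGAAG) on either strand. For Robo2, which has 3 starts in the RefSeq table, the one nearest the GENCODE start is shown.
Slit2 chr5:47982905-47983134, plus strand: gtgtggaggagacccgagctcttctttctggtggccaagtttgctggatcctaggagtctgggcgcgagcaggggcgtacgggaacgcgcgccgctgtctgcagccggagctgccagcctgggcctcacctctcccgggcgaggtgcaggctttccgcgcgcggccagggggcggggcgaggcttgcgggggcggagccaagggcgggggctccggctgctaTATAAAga
Unc5b chr10:60831602-60831831, minus strand: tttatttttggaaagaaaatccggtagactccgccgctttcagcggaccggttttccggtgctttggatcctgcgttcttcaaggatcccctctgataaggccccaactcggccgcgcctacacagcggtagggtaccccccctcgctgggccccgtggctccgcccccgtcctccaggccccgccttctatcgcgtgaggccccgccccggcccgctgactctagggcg
Robo2 chr16:74411846-74412075, minus strand: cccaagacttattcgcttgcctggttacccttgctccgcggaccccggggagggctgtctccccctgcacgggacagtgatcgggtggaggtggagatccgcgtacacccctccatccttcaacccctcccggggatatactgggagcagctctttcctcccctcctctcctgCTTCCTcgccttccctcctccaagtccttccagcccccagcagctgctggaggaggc
The Slit2 window holds 1 TATA match, 28 bases before the start, the Robo2 window 1 ETS match, 77 bases before it, and the Unc5b window none of these letters. Over 32851 windows of the same length, 11.8% held the TATA letters, 27.2% the ETS letters and 9.49% the GATA letters. The Slit2 and Unc5b windows had 22 and 22 CpG pairs and the Robo2 window 10, beside a median of 5 over all windows. G and C made up 70, 64.8 and 64.3% of them, beside a median of 51.7%. The windows of the other Robo2 starts had 7 and 4 CpG pairs, and the latter held 1 GATA match. A match is a description, not a site.

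Mesenchyme-type nuclei were clustered again without the 9 genes, a step added after the levels had been seen, and 2 of the 10 sub-clusters held most Robo2. The first, led by Hs3st2 and Postn (83 and 30 nuclei of Ncx1+/+ and Ncx1+/- and none of Ncx1-/-), held 2096 [1955-2245] and 2403 [2123-2710] CPM of Robo2 in Ncx1+/+ and Ncx1+/-. The second, led by Fam155a (61, 25 and 1 nuclei), held 1407 [1289-1533] and 1516 [1303-1754] CPM. Within each, the intervals of Ncx1+/+ and Ncx1+/- overlapped. Together they held 28% [24.1-32.1], 17.2% [13.2-21.8] and 0.794% [0.0201-4.34] of the mesenchyme-type nuclei. The remaining mesenchyme-type nuclei held 202 [182-224], 182 [158-208] and 48.2 [29.4-74.4] CPM of Robo2. These sub-clusters were picked by their Robo2, so the contrast is a description.

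**Figure D4:**
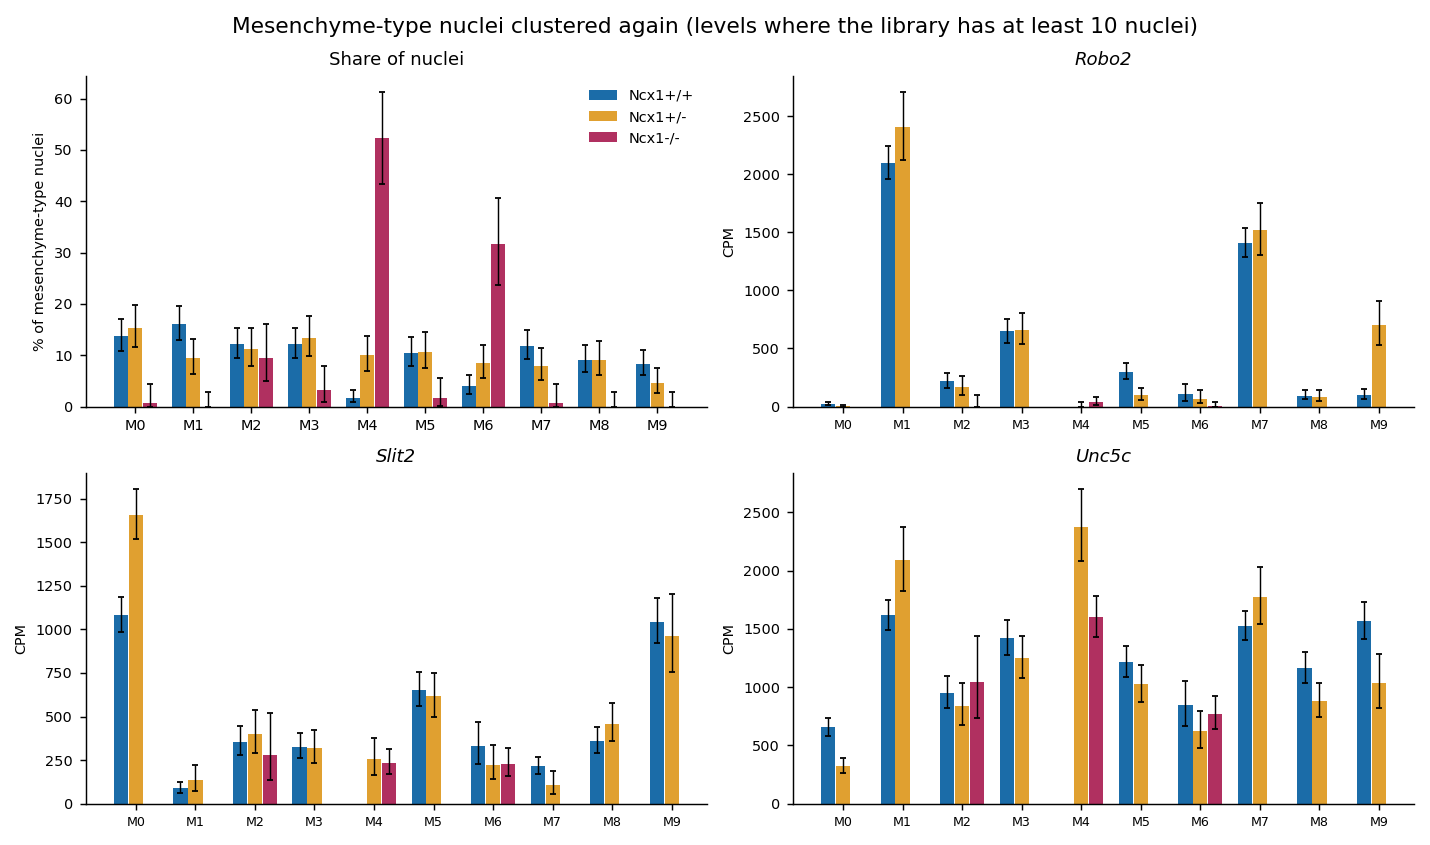
Mesenchyme-type nuclei clustered again into M0 to M9 (horizontal axes): the share of each library's nuclei in percent with exact binomial 95% intervals, and the levels of Robo2, Slit2 and Unc5c in CPM with exact Poisson 95% intervals, drawn where the library had at least 10 nuclei. Robo2 stood at 2096 and 2403 CPM in M1 and 1407 and 1516 CPM in M7 in Ncx1+/+ and Ncx1+/-, while 52.4% of Ncx1-/- nuclei lay in M4 and 31.7% in M6.

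Where Robo2 was high in mesenchyme-type nuclei, Slit2 stood at 152 [126-182] and 122 [80.9-176] CPM in Ncx1+/+ and Ncx1+/-, against 659 [622-698] and 770 [721-822] CPM in the remaining nuclei. The sub-cluster led by Nav3 and Pcdh17 held the most Slit2, at 1082 and 1657 CPM, and 22.2 and 3.21 CPM of Robo2. The endothelial marker Emcn, and no cushion mesenchyme marker, was among its 10 leading genes. The sub-cluster next in Slit2, led by Ncald (43, 15 and 0 nuclei), held 1045 and 961 CPM of Slit2 and 101 and 699 CPM of Robo2. The Ncx1+/- values thus rest on 15 nuclei, and sums do not show whether the same nuclei held both genes. Unc5c was present in both groups, at 1572 [1484-1663] and 1926 [1750-2114] CPM against 1096 [1048-1146] and 910 [857-967] CPM.

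Several marker lists moved with these groups or with the genotype. In Ncx1+/+ and Ncx1+/- the 13 cushion mesenchyme markers summed to 2055 and 1782 CPM where Robo2 was high and to 1336 and 1190 CPM in the others, and the 13 endothelial markers to 1875 and 1752 CPM against 3676 and 3882 CPM. The 12 cardiomyocyte markers were higher where Robo2 was high, at 3356 and 4799 CPM against 2124 and 2341 CPM, and stood at 3844 CPM in the other nuclei of Ncx1-/-. The 6 neural crest markers summed to 195 and 222 CPM against 175 and 223 CPM, with the defining genes Foxd3 and Tfap2b at 0. In the other nuclei of Ncx1-/- the neural crest markers were higher, at 436 CPM, with Sox10, Foxd3 and Tfap2b at 0. The part of these markers in the Robo2 difference was not tested.

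Most Ncx1-/- nuclei of the class lay in the sub-cluster with Prss35 and Avil among its leading genes (9, 32 and 66 nuclei), where Robo2 was at 0 [0-37.5] and 40.6 [17.5-80] CPM in Ncx1+/- and Ncx1-/-, with overlapping intervals. In the one led by Dpp6 and Miip (21, 27 and 40 nuclei) Robo2 was at 107 [51.3-197], 68.4 [27.5-141] and 6.54 [0.166-36.5] CPM. Selecting nuclei of the endocardial lineage by a UMI of Pdgfra, a cushion mesenchyme marker, whatever their sub-cluster, gave 322, 200 and 113 nuclei with Robo2 at 787, 450 and 75.7 CPM, a ratio of 0.0962 [0.0659-0.136] to Ncx1+/+. In the same nuclei Slit2 stood at 379, 522 and 335 CPM and was not past the fold, and Unc5b at 139, 132 and 59.6 CPM and was. Selection by a UMI of Sox9 or Twist2, also chosen after seeing the data, gave other values. A UMI of Sox9 gave 694, 787 and 225 CPM of Slit2 and 450, 313 and 43 CPM of Robo2, and a UMI of Twist2 588, 756 and 330 CPM of Slit2 and 427, 183 and 63.3 CPM of Robo2. With either marker Slit2, Robo2 and Unc5b were past the fold, so Slit2 depended on the marker chosen. Unc5c stood at 1183, 811 and 835 CPM with a UMI of Pdgfra and at 1070, 817 and 731 CPM with Sox9. With Twist2 it stood at 936, 812 and 547 CPM. Unc5c was past the fold against both other libraries with none of these markers.

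Other genes of the pathway came from a list of 55 co-receptors, relatives and signal carriers of Slit and netrin, 54 of which were in the tables. In cardiomyocyte nuclei 47 were measured, of which 2 were higher in Ncx1-/- and 3 were lower, beside 4.42% and 3.31% over all measured genes. The heparan sulphate proteoglycan Sdc4 was higher, at 5.77, 7.31 and 15 CPM, as was Rgma, a ligand of the Dcc relative neogenin, at 0.816, 0.86 and 1.66 CPM. The relatives of Sdc4, Sdc1, at 1.72, 1.95 and 0.992 CPM, and Sdc3, at 5.4, 5.36 and 3.5 CPM, and the netrin-G family member Ntng2, at 2.22, 1.82 and 0.759 CPM, were lower. Heparan sulphate is known to support the binding of Slit to Robo.

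In endocardial nuclei 43 of the list were measured, with 2 higher and 1 lower, beside 9.73% and 4.95% over all measured genes. Higher were Rgma, at 4.49, 5.85 and 8.87 CPM, and the netrin-G family member Ntng1, at 8.59, 6.54 and 16.5 CPM, and the kinase Pak3, at 12, 12.7 and 4.31 CPM, was lower. In mesenchyme-type nuclei 35 were measured, with 2 higher and 3 lower, beside 10.4% and 9.2% over all measured genes. Lower were Ext1, an enzyme of heparan sulphate synthesis, at 1783, 1925 and 1059 CPM, Trio, an exchange factor that acts below netrin receptors, at 658, 638 and 385 CPM, and the adaptor Nck2, at 224, 230 and 143 CPM. The actin-binding Cap1, at 54.4, 49.8 and 83.6 CPM, and Cap2, at 25.2, 26.3 and 43 CPM, were higher. The median log2 ratio of the list to Ncx1+/+ was -0.12 in cardiomyocyte, -0.01 in endocardial and -0.07 in mesenchyme-type nuclei.

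By the same rule, none of the 9 genes was past the fold in Ncx1+/- against both other libraries in these 3 classes. Such calls were rare over all measured genes too. In cardiomyocyte nuclei 34 of 14153 were higher and 39 lower. In endocardial nuclei it was 21 and 28 of 10588, and in mesenchyme-type nuclei 14 and 37 of 6536. In epicardial and epithelial nuclei, of which Ncx1+/- had 51, Unc5c stood at 1987 [1889-2088], 1734 [1558-1924] and 1260 [1201-1322] CPM and Robo1 at 687, 588 and 684 CPM. Over the libraries together, the epicardial-like sub-cluster held 1308 CPM of Robo2, 1861 CPM of Slit3 and 1273 CPM of Unc5c. The epithelial-like one, with Epcam and Grhl2 among its leading genes, held 102 CPM of Robo2 and 300 CPM of Slit2.

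Some genes followed a member closely over the 15 sums of 5 classes and 3 libraries. By Pearson's r of log2(CPM + 1), Col4a2, Zfp521 and Heg1 were nearest to Slit2 (0.962 to 0.965), Thsd4, Skida1 and Trabd2b to Slit3 (0.962 to 0.971) and Prkaa2, Actn2 and Casz1 to Ntn1 (0.973 to 0.975). Nearest to the Robo genes were Zfp618, Zfp462 and Dse for Robo1 (0.987 to 0.994), Ror1, Ccdc138 and Clstn2 for Robo2 (0.933) and Icam1, Fam124b and Gbp4 for Robo4 (0.97 to 0.985). For the netrin receptors they were Kansl1l, Prkd1 and Ptbp2 for Unc5b (0.969 to 0.976), Gpc6, Lrrk1 and Msi1 for Unc5c (0.964 to 0.972) and Mybphl, Arhgef4 and Cacna1h for Dcc (0.955 to 0.971). The points share libraries and differ in depth, and r is given as a description.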

How the data were processed

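Nuclei of whole mouse hearts were profiled in 3 libraries with the Chromium reagent kit 3.1 and a NovaSeq 6000, per the labels' protocols. The deposited values are whole-number counts of UMIs per gene and barcode, without normalisation. Cell Ranger 6.1.0 and build mm10 are named per the submitters' processing notes, and Cell Ranger 9.0.0 per the file headers. For introns and strand, the counting mode is not given in these sources. Antisense genes in the tables that overlap Slit2 and Unc5c held at most 64 counts. Of the 27998 gene IDs, 27645 matched GENCODE M21.

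Barcodes with 500 or more genes and no more than 5% mitochondrial UMIs were retained. The 8% with the highest Scrublet scores (scanpy 1.11.5) were removed from each library, because the automatic threshold marked 10.3, 11 and 0%. Nuclei were clustered with the Leiden method (leidenalg 0.10.2; 2000 variable genes without the 9 members and 55 pathway genes, 30 components, 15 neighbours, resolution 1, no batch correction) and named from marker lists, at least 3 markers per name. Mixed clusters were left out (64, 123 and 221 nuclei of the cardiomyocyte and 92, 199 and 510 of the endocardial lineage). Counts were summed per class and library and scaled to CPM. The calling rule was run on simulated counts with known folds. These held counting error only, so the run cannot show how libraries or hearts of 1 genotype vary. TMM factors came from edgeR 4.0.16.

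The members and lists were chosen with earlier results of these data known. All 9 members are named, pathway genes where past the fold, and the 3 genes most like each member. Alternatives were other scalings, a minimum of 20 counts, 1000 genes per nucleus, no doublet filter, resolution 2, members and pathway genes kept in the clustering, free RNA subtracted, weighted sub-clusters and thinning to 1000 UMIs. Clustering seeds 1 to 3, mixed sub-clusters kept and a second clustering of mesenchyme-type nuclei were added after seeing the data.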

Additional observations from a re-analysis of the deposited data

Results flagged for a closer look

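Robo2 in Ncx1-/- lay on opposite sides of the other libraries in 2 classes. In mesenchyme-type nuclei its ratio to Ncx1+/+ was 0.0712 and to Ncx1+/- 0.102. In cardiomyocyte nuclei the ratios were 1.28 [1.23-1.33] and 1.17 [1.12-1.22]. The difference between the classes was not tested, since each genotype has 1 library.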

How the results depend on the processing

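The count of members past the fold in cardiomyocyte nuclei was 1, and 2 at a Leiden resolution of 2.0 and with the members and pathway genes kept in the clustering, where Unc5c was lower too. Over all measured genes, 478 of 14021 and 486 of 14047 were lower in these settings, against 469 of 14153. With sub-clusters weighted as in Ncx1+/+ the count of members was 2, with other members: Slit2 and Robo1 lower, and Dcc no longer called. No share over all measured genes is available under this weighting, so that count has no background. In endocardial nuclei the count of 2 became 3 with TMM factors, median-of-ratios factors, 1000 genes per nucleus or free RNA subtracted (Unc5b lower), and 3 with no doublet filter (Slit3 higher). Of all 10588 genes measured there, 524 were lower by class totals, 739 by TMM factors, 769 by median-of-ratios factors and 601 with free RNA subtracted. With 1000 genes per nucleus it was 475 of 10885. Higher calls went from 1030 to 1200 of 10577 with no doublet filter. In mesenchyme-type nuclei the count of members was 3, and 2 with the members and pathway genes kept in the clustering. Lower calls over all genes were 601 of 6536 and 402 of 6630 there. The partition moves with small changes of the input, so the clustering was repeated with seeds 1, 2 and 3, an alternative chosen after seeing the data. The calls of Dcc in cardiomyocytes, of Slit2 and Unc5c in endocardial and of Unc5b and Robo2 in mesenchyme-type nuclei were made with each seed, and that of Slit2 in mesenchyme-type nuclei with 2 of 3. Over the seeds the log2 ratio to Ncx1+/+ ran from -1.54 to -1.52 for endocardial Slit2, from -2.44 to -1.22 for endocardial Unc5c and from -4.45 to -3.30 for mesenchyme-type Robo2. Over all settings mesenchyme-type Robo2 ran from -4.68 with the members and pathway genes kept to -2.86 with 1000 genes per nucleus. Selection of lineage nuclei by a UMI of Twist2, not counted among the settings, gave -2.75 for Robo2. The size of its ratio thus moved by far more than 1.5 times, while the call was made in each. No ratio of a called member turned direction. Of members not called, endocardial Slit3 had log2 ratios to Ncx1+/+ from -0.32 to 0.78 and mesenchyme-type Unc5c from -0.97 to 0.20 over all settings. Median-of-ratios factors gave shares of higher calls over all genes of 43.5% in endocardial and 29.3% in mesenchyme-type nuclei. A minimum of 20 counts moved the calls over all genes in mesenchyme-type nuclei from 682 higher and 601 lower to 1793 and 1194. No paired analysis was possible because each genotype has 1 library, and no replicate could be left out. Depth limits Robo4, with 58, 32 and 22 endocardial counts, and mesenchyme-type nuclei of Ncx1-/-, where 3 counts equal 7.17 CPM.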
